A study of Mus musculus with 6 samples.

Results

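The genes described here are 50 mouse genes of the machinery that separates chromosomes at cell division, among 28262 genes in the deposited count table. They encode proteins of the spindle, the centromere and kinetochore, the spindle checkpoint, mitotic entry, anaphase, cytokinesis and condensin, together with Top2a and Mki67. They were chosen by symbol from these roles. Each of the 50 was found once in the table, and all passed the filter on low counts that left 14919 genes for testing. RNA had been taken from Sertoli cells purified from testes of 20-day-old C57BL/6 mice and kept in culture without treatment. Per the study's isolation methods, the culture medium held insulin, epidermal growth factor and transferrin, and germ cells that had not attached were washed away. Of 6 libraries, 3 came from Pa1F/F mice, whose Pa1 alleles are floxed and which served as the control, and 3 from Amh-pa1-/- mice, in which the same floxed alleles are deleted by a Cre recombinase under the Amh promoter. The Amh promoter is active in Sertoli cells, so other cells that remained in the cultures of the knockout would have kept Pa1. The study's methods speak of biological replicates and the labels number them, but neither says whether they came from separate animals. The p-values therefore cover the spread between these libraries, which may be partly technical.

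Sertoli cells line the seminiferous tubules and support the germ cells. In the mouse they multiply before and shortly after birth and then leave the cell cycle as they mature. Mitotic genes are transcribed mainly late in the cell cycle. Cyclin A and cyclin B with the kinase Cdk1 start mitosis, condensin and topoisomerase II shape the chromosomes, the kinetochore couples them to microtubules, and the checkpoint holds back anaphase until every kinetochore is attached. The anaphase-promoting complex with Cdc20 then has securin and the cyclins destroyed, separase cuts cohesin, and the central spindle guides cytokinesis. In a bulk library, more dividing cells and more RNA of a gene per cell cannot be told apart.

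Mitotic genes are known for a shared promoter layout, the cell cycle gene homology region (CHR), bound by the MuvB protein Lin54, placed near the start site and downstream of one or more CCAAT boxes, bound by NF-Y. The RefSeq promoters of mouse build GRCm38.p6, with 250 bases before and 50 after the start, held an entry for 41 of the 50 genes. The CHR was searched as TTTGAA or TTCGAA on both strands, and the CCAAT box as CCAAT on both strands. Each match was counted, also where matches share bases. This was so in Cdca8 (a CHR at position 14 and a CCAAT box at 19, counted from the start) and in Ube2c (CCAAT boxes at -186 and -183). A CHR was present in 30 of the 41 genes (73.2%), against 21.7% of the 27025 genes with a promoter in the RefSeq table. Within 50 bases of the start a CHR was present in 27 of the 41 (65.9%), against 6.12% of all genes. A CCAAT box was present in 33 of the 41 (80.5%) against 41.1% of all, and both motifs in 28 (68.3%) against 9.65% of all. Of the 32 DNA replication genes with a promoter, 6 (18.8%) held a CHR and 19 (59.4%) a CCAAT box. These shares are descriptions and were not tested.

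The following stretches are shown because they come from genes described below and cover most roles. They run 5′ to 3′ along the gene's own strand, in RefSeq's GRCm38.p6 coordinates, with positions counted from the start site, and the bases in capitals are CHR and CCAAT matches or their reverse complements. All lie outside the gene as the deposited table bounds it.
Mki67, positions -200 to -1, chr7:135716380-135716579, minus strand: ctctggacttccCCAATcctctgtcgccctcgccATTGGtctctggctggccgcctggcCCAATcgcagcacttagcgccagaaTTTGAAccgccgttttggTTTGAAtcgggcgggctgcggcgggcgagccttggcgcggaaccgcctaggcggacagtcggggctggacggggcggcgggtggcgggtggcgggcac
Top2a, positions -250 to -1, chr11:99024190-99024439, minus strand: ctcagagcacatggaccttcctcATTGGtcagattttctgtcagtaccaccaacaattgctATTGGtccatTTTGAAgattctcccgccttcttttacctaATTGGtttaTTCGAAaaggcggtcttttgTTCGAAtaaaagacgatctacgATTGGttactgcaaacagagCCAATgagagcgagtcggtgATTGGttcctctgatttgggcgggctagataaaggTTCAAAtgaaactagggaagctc
Cdk1, positions -220 to -27, chr10:69352939-69353132, minus strand: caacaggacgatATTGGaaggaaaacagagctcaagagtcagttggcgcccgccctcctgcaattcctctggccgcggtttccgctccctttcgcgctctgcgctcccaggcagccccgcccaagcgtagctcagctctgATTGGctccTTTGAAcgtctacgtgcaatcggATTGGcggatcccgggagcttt
Ccnb2, positions -100 to -1, chr9:70421555-70421654, minus strand: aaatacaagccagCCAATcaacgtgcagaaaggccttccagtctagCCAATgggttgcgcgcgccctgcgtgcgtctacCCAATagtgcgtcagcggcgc
Cdc20, positions -100 to -10, chr4:118437353-118437443, minus strand: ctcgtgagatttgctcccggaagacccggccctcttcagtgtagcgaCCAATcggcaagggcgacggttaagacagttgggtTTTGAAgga
Espl1, positions -100 to -1, chr15:102296193-102296292, plus strand: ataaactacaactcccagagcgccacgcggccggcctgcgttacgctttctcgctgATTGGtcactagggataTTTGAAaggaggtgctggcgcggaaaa
Ckap2l, positions -130 to -1, chr2:129297213-129297342, minus strand: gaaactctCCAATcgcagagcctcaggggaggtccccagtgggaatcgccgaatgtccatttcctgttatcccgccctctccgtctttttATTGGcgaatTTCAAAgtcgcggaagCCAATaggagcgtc
Cenpf, positions -140 to -1, chr1:189688087-189688226, minus strand: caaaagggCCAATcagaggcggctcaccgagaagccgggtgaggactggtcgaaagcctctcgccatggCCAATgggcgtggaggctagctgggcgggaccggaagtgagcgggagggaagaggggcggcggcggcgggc
Nuf2, positions -100 to -1, chr1:169531465-169531564, minus strand: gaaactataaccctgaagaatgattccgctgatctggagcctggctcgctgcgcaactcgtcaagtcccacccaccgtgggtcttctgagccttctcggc
Top2a held 4 CHR and 6 CCAAT matches in these 250 bases. Ccnb2 showed 3 CCAAT boxes at positions -87, -54 and -21, and Nuf2 showed neither motif. In several genes the CHR lies just after the start, as in these sites.
Anln, positions 18 to 43, chr9:22389164-22389189, minus strand: gaaaTTCAAAtTTTGAAcggccgtgg
Ccnb2, positions -3 to 14, chr9:70421541-70421557, minus strand: cgcggtaTTTGAAtcgc
Ttk, positions 1 to 20, chr9:83834689-83834708, plus strand: gggaaatTTCAAAcgtgttt
Anln held 2 CHR matches back to back in opposite orientation and no CCAAT box. Neither motif was found in this window for Nuf2, Nusap1, Ncaph, Mad2l1, Birc5 and Pttg1. For Pttg1 the RefSeq start lies 270 bases inside the gene as the table bounds it, so the window does not reach the bases before that outer end, while for 33 of the 41 genes a RefSeq start lies within 50 bases of it. A match is a description of letters, and the absence of one says nothing about a factor. Both motifs were common among the 17 genes that did not pass the test described below (of 15 with a promoter, 13 held a CHR and 15 a CCAAT box) and among the 32 that were higher in the knockout (17 and 18 of 25).

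Total counts ranged from 13203757 to 16231443 per library. Before any comparison of genotypes, 2 libraries stood apart in the mitotic genes. Summed over the 50 genes, the level was 1164, 1688 and 1129.6 CPM (counts scaled to a library total of 1000000) in Pa1F/F libraries 1, 2 and 3 and 2222, 2253 and 3641 CPM in Amh-pa1-/- libraries 1, 2 and 3. Pa1F/F library 2 was the highest of its group in 49 of the 50 genes (98%, against 39.6% of all tested genes), with a median of 1.53-fold over the mean of the other two. Amh-pa1-/- library 3 was the highest of its group in 49 genes and of all 6 libraries in 48 (96%, against 24.2% of all tested genes), with a median of 1.70-fold over the other two. Across all tested genes the same ratios had medians of 1.001 and 1.004, which normalization holds near 1. Pa1F/F libraries 1 and 3 differed by a median of 0.08 on the log2 scale in the mitotic genes, and Amh-pa1-/- libraries 1 and 2 by 0.09, where the pairs with the library that stood apart differed by 0.61 to 0.78. These libraries also stood apart over all genes, where the pairs with them differed by a median of 0.15 to 0.24 and the close pairs by 0.09 to 0.10. The close pairs still differed by more than sampling noise (Pearson's chi-square over genes divided by its degrees of freedom was 2.23 and 1.68, where noise alone gives about 1 and the other pairs gave 18.5 to 30.5), and all 6 libraries were kept. In 49 of the 50 genes both Amh-pa1-/- libraries 1 and 2 lay above both Pa1F/F libraries 1 and 3 (98%, against 38.7% of all tested genes), and in 16 genes at least one of these knockout libraries lay below Pa1F/F library 2 (32%, against 56.2% of all tested genes).

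**Figure D1:**
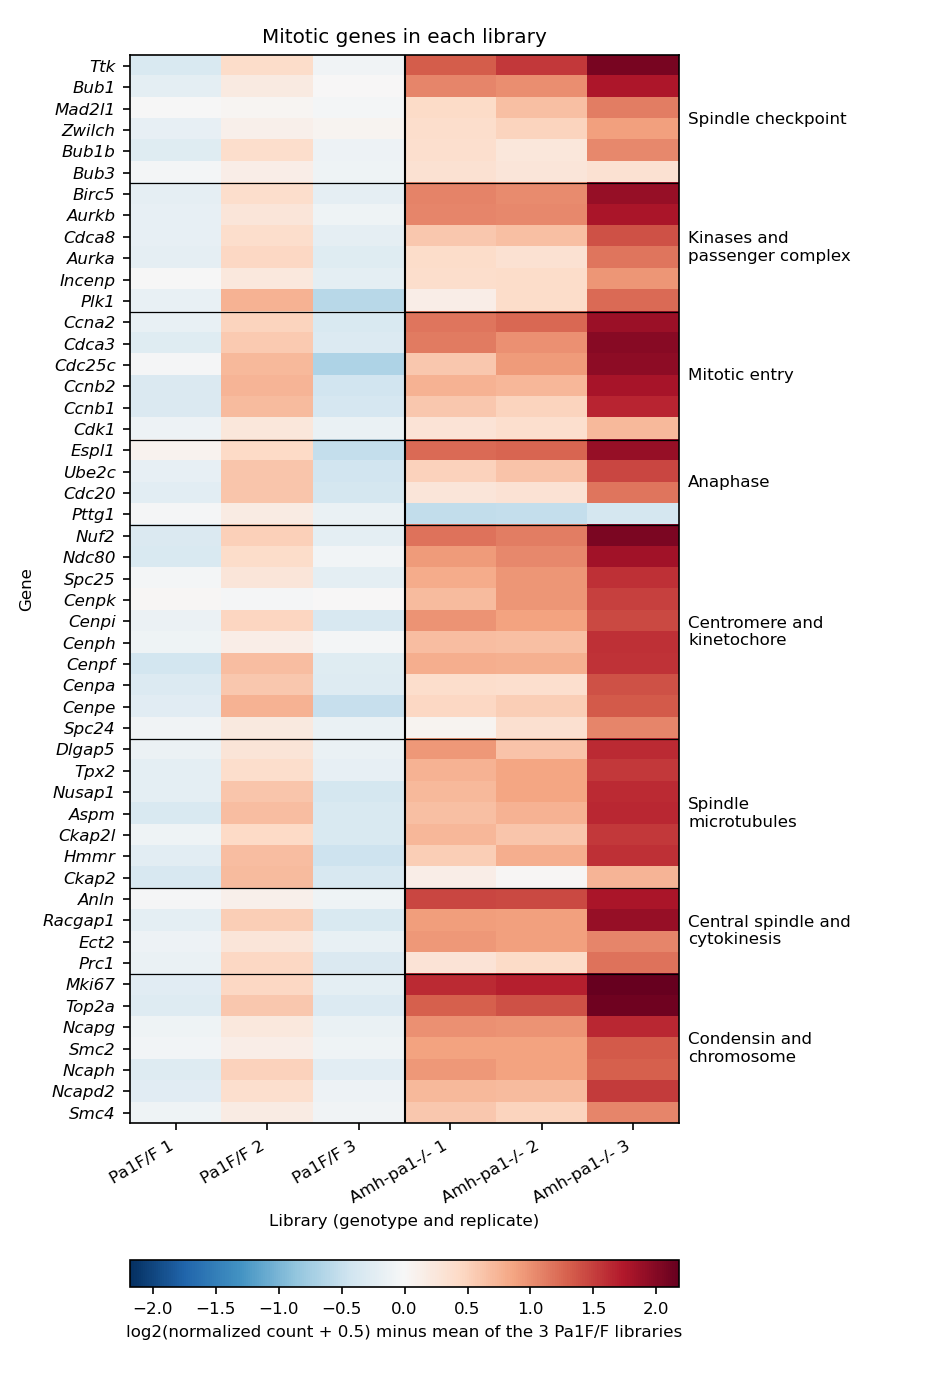
Level of the 50 mitotic genes in each library, as log2(normalized count + 0.5) minus the mean of the 3 Pa1F/F libraries, with genes in rows by role and libraries in columns. Amh-pa1-/- library 3 is the highest library in 48 genes, Pa1F/F library 2 is the highest control in 49, and Pttg1 is the one row that is lower in all Amh-pa1-/- libraries.

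Most mitotic genes were higher in Amh-pa1-/- Sertoli cells, with at least 1 such gene in each of the 8 roles. With edgeR's quasi-likelihood test and Benjamini-Hochberg adjustment over all tested genes, 32 of the 50 were higher in the knockout at an adjusted p under 0.05 (64%), against a background of 18.2% of all tested genes. A single gene, Pttg1, was lower, where 17.1% of all tested genes were. The other 17 did not pass. With a log2 fold change of at least 1 required as well, 24 were higher, against 5.44% of all tested genes, and none was lower. The median log2 fold change of the 50 genes was 1.01, with a range from -0.49 to 1.82, beside a median of 0.002 over all tested genes, and the fitted value was above 0 in 49 of them. In 34 genes every knockout library lay above every control library, which was so for 26.3% of all tested genes. An exact two-sided permutation test of 3 libraries against 3 cannot give a p below 0.1, which is the value for these genes and for Pttg1.

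These counts depended on single libraries, while the direction did not. Without Pa1F/F library 1 or without Pa1F/F library 3, 14 genes remained higher, all among the 32, and without Pa1F/F library 2 there were 39. The share of all tested genes that were higher was 11.6%, 11.5% and 15% in these fits. Without Amh-pa1-/- library 3, 31 remained and the median log2 fold change was 0.67, with 11 genes at a log2 fold change of at least 1, and 21.9% of all tested genes were higher. With both libraries that stood apart left out, 48 genes were higher, among them all of the 32, at a median of 0.97, and 28.0% of all tested genes were then higher. These libraries were picked by the level of the mitotic genes themselves, so leaving them out narrows the spread within groups. With each close pair summed to 1 library, 4 genes (Mki67, Anln, Smc2 and Ect2) were higher and no gene was lower, against 4.43% of all genes tested there. In each of these fits 49 of the 50 fitted values were above 0. The 14 genes that were higher in the full fit and without any 1 library were Bub1, Ttk, Aurkb, Birc5, Ccna2, Espl1, Cenpk, Spc25, Anln, Ect2, Ncapg, Smc2, Top2a and Mki67. Reads of 15 of the 50 genes may be shared with a gene that overlaps on the other strand. Among these are Zwilch, which overlaps Lctl (2228 and 1502 counts over all libraries), and Cdca8, which overlaps 9930104L06Rik (2563 and 1418 counts). Some of the others are named below. In the text below, values are normalized counts (counts scaled to a common library size with TMM factors) and changes are log2 fold changes ± standard error, knockout against control.

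**Figure D2:**
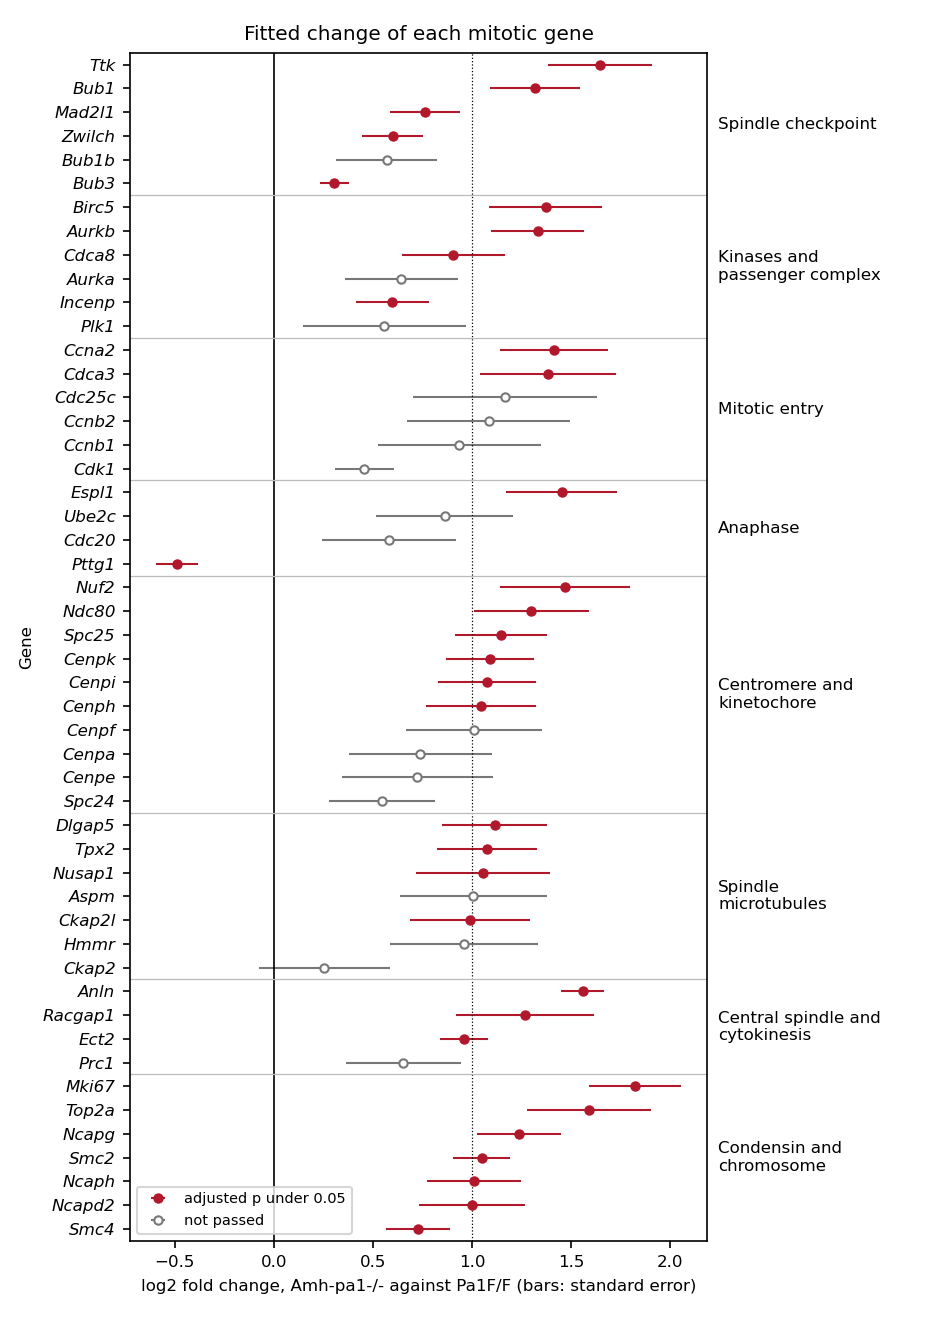
Fitted log2 fold change (Amh-pa1-/- against Pa1F/F) of each mitotic gene with its standard error, by role. Filled points mark the 33 genes at an adjusted p under 0.05, open points the 17 that did not pass, and the dotted line a log2 fold change of 1; Mki67 has the highest value (1.82) and Pttg1 the lowest (-0.49).

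Among the chromosome genes, all 7 were higher in the knockout. Mki67 encodes Ki-67, the surfactant of mitotic chromosomes that is used as a mark of cycling cells. It stood at 805, 1298 and 826 normalized counts in the Pa1F/F libraries and 2956, 3088 and 4313 in the Amh-pa1-/- libraries. The groups were far apart, with a log2 fold change of 1.82 ± 0.23 (3.53-fold, adjusted p = 0.00173), the largest of the 50 genes, and 1.89 without both libraries that stood apart. Top2a, topoisomerase II alpha, which untangles sister DNA, was at 760.3, 1387 and 756 in the control and 2280.2, 2439 and 4019 in the knockout (1.59 ± 0.31, adjusted p = 0.00894). Here Pa1F/F library 2 was well above the other control libraries and still below every knockout library. Smc2 and Smc4 form the ATPase core of condensin, and Ncapd2, Ncapg and Ncaph are the other subunits of condensin I. Smc2 changed by 1.05, Smc4 by 0.73, Ncapd2 by 1.001, Ncapg by 1.24 and Ncaph by 1.01 on the log2 scale, so that Smc4 changed least of the complex. Ncapg overlaps Lcorl on the other strand, and since the counting is not stated to use strand, reads of the overlap cannot be told apart.

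Of the central spindle and cytokinesis genes 3 of 4 were higher. Anln encodes anillin, the scaffold of the contractile ring, and stood at 938, 1025 and 895 in the control and 2605, 2564 and 3246 in the knockout. Its groups did not overlap, and the spread within each was small beside the gap (1.56 ± 0.11, adjusted p = 0.000207, the smallest among the 50 genes). Its fitted value ranged from 1.44 to 1.63 when any 1 library was left out. Ect2, the exchange factor that activates RhoA at the equator, changed by 0.96 ± 0.12, and Racgap1, the centralspindlin subunit that binds Ect2, by 1.27 ± 0.35. Prc1, which bundles the microtubules of the midzone, was at 502, 752 and 446 in the control and 677, 733 and 1260.5 in the knockout and did not pass (0.65 ± 0.29, adjusted p = 0.125). In Prc1 Amh-pa1-/- libraries 1 and 2 lay below Pa1F/F library 2. Prc1 also overlaps Rccd1 on the other strand.

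The spindle checkpoint had 5 of 6 genes higher and 1 that did not pass. Ttk (Mps1), the kinase at the head of the checkpoint, was at 74.3, 124 and 89.1 in the control and 233, 273 and 394 in the knockout, with no overlap (1.65 ± 0.26, 3.13-fold, adjusted p = 0.00399). Bub1, the kinase that Ttk recruits through the kinetochore scaffold, changed by 1.32 ± 0.23. Mad2l1, which seals Cdc20 into the inhibitory complex, changed by 0.76 and Zwilch, of the complex that brings Mad proteins and dynein to kinetochores, by 0.60. Bub3 had the highest normalized counts of the role, with 1134, 1295 and 1102 in the control and 1473, 1416 and 1473 in the knockout. It was higher by only 0.30 ± 0.07 (adjusted p = 0.0187), with Amh-pa1-/- library 3 level with the other knockout libraries. Bub1b, which encodes BubR1, was at 357, 556 and 395 in the control and 552, 506 and 883 in the knockout, and did not pass (0.57 ± 0.25, adjusted p = 0.126), and Amh-pa1-/- libraries 1 and 2 lay below Pa1F/F library 2.

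Of the mitotic kinases and the chromosomal passenger complex, 4 of 6 genes were higher, and these were the 4 members of the complex. Birc5, which encodes survivin, stood at 133, 198 and 133 in the control and 321, 309.8 and 571 in the knockout, with no overlap (1.37 ± 0.29, adjusted p = 0.0110). Aurkb, its kinase, changed by 1.33 ± 0.24, Cdca8 (borealin) by 0.91 ± 0.26 and Incenp, the scaffold, by 0.60 ± 0.18. Incenp had the highest normalized counts of the role, at 647, 765 and 564 in the control and 855, 866 and 1269 in the knockout (adjusted p = 0.0436). The kinases outside the complex did not pass. Aurka, the centrosomal Aurora kinase, was at 216, 341 and 208 in the control and 327, 311 and 555 in the knockout (0.64 ± 0.29, adjusted p = 0.126). Plk1, Polo-like kinase 1, was at 175, 331 and 128 in the control and 216, 257 and 461 in the knockout (0.56 ± 0.41, adjusted p = 0.333). In Plk1 the spread within groups was wide, with Pa1F/F library 2 above both Amh-pa1-/- libraries 1 and 2.

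Mitotic entry genes had 2 of 6 higher, although their median log2 fold change was 1.12. Ccna2, cyclin A2, which acts from S phase to early mitosis, was at 280, 439 and 249 in the control and 698, 741 and 1139 in the knockout (1.41 ± 0.27, adjusted p = 0.00801), with no overlap. Ccna2 overlaps Exosc9 on the other strand. Cdca3, which triggers the destruction of the Cdk1 inhibitor Wee1, changed by 1.38 ± 0.34. The B-type cyclins did not pass. Ccnb1 was at 229, 459.9 and 223 in the control and 429, 403 and 912 in the knockout (0.94 ± 0.41, adjusted p = 0.120), and Ccnb2 at 228, 472 and 213 in the control and 479, 469 and 988 in the knockout (1.08 ± 0.41, adjusted p = 0.0819). In both, Pa1F/F library 2 stood at about the level of Amh-pa1-/- libraries 1 and 2, and Amh-pa1-/- library 3 was 2.19-fold (Ccnb1) and 2.08-fold (Ccnb2) over the mean of those. Cdk1, the kinase both cyclins activate, was at 658, 841 and 637 in the control and 873, 911 and 1147 in the knockout. Its groups did not overlap, but the change was small and just missed the threshold (0.46 ± 0.15, adjusted p = 0.0501). Cdc25c, the phosphatase that activates Cdk1, had the lowest mean normalized count of the 50 genes and a log2 fold change of 1.17 ± 0.46 (adjusted p = 0.0935).

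Of the 4 anaphase genes 1 was higher, 1 was lower and 2 did not pass. Espl1, which encodes separase, the protease that cuts cohesin, stood at 166, 212 and 109 in the control and 370, 377 and 586 in the knockout (1.45 ± 0.28, adjusted p = 0.00841). Pttg1, which encodes securin, the inhibitor that holds separase until anaphase, stood at 490.2, 565 and 452 in the control and 344, 350.4 and 382 in the knockout. All 3 knockout libraries lay below all 3 control libraries, with a log2 fold change of -0.49 ± 0.11 (adjusted p = 0.0128), and the fitted value ranged from -0.56 to -0.40 with 1 library left out. It passed in every such fit but the one without Amh-pa1-/- library 2. Pttg1 was thus the exception in genotype, although within each group it was also highest in the library in which the other genes were highest. Cdc20, the activator of the anaphase-promoting complex, was at 401, 716 and 362 in the control and 564, 586 and 1062 in the knockout (0.58 ± 0.34, adjusted p = 0.226), and Ube2c, the ubiquitin-conjugating enzyme of that complex, at 212, 364 and 180.4 in the control and 343, 371 and 662 in the knockout (0.86 ± 0.34, adjusted p = 0.0946). Neither passed, and Pa1F/F library 2 lay above Amh-pa1-/- libraries 1 and 2 in Cdc20 and between them in Ube2c. Cdc20 overlaps Elovl1 on the other strand, which had more counts.

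At the centromere and kinetochore 6 of 10 genes were higher. Nuf2, a subunit of the Ndc80 complex that grips microtubules, was at 115, 205 and 123 in the control and 326, 309.8 and 590.2 in the knockout (1.47 ± 0.33, adjusted p = 0.0142). Of the same complex, Ndc80 changed by 1.30 ± 0.29 and Spc25 by 1.15 ± 0.23, while Spc24 did not pass at 0.55 ± 0.27 (adjusted p = 0.157). The inner kinetochore genes Cenph, Cenpi and Cenpk were higher by 1.05, 1.07 and 1.09. Cenpk was the single gene of the 50 in which Pa1F/F library 2 was not the highest control, and it overlaps Ppwd1 on the other strand, which had more counts. Cenpf, a large coat protein of the outer kinetochore, had the highest normalized counts of the role, at 313, 658 and 346 in the control and 715, 706 and 1230.4 in the knockout. Its groups did not overlap, and it did not pass (1.01 ± 0.34, adjusted p = 0.0589). Cenpe, a kinesin motor of the kinetochore, was at 296, 598 and 249.6 in the control and 482, 516 and 891 in the knockout (0.72 ± 0.38, adjusted p = 0.183). Cenpa, the histone H3 variant that marks the centromere, was at 177, 325 and 178 in the control and 283, 282 and 569 in the knockout (0.74 ± 0.36, adjusted p = 0.156).

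Of the spindle microtubule genes 4 of 7 were higher. Dlgap5 (HURP), which stabilises kinetochore fibres, was at 226, 302 and 223 in the control and 480.3, 383 and 762 in the knockout (1.11 ± 0.27, adjusted p = 0.0180). Tpx2, the microtubule nucleator that activates Aurora A, had the highest normalized counts of the role, at 616, 926 and 632 in the control and 1210.4, 1291 and 2079 in the knockout (1.08 ± 0.25, adjusted p = 0.0165). Nusap1 and Ckap2l, which bind spindle microtubules, changed by 1.05 and 0.99. Ckap2 was at 301, 619.7 and 299 in the control and 425, 389.8 and 638 in the knockout and had the fitted value nearest 0 of the 50 genes (0.25 ± 0.33, adjusted p = 0.587). Its Pa1F/F library 2 was close to Amh-pa1-/- library 3 and above the other knockout libraries. Aspm, which acts at spindle poles, was at 210.2, 425 and 209.8 in the control and 419.7, 449 and 829 in the knockout (1.01 ± 0.37, adjusted p = 0.0760), and Hmmr, a spindle assembly factor, at 193, 361 and 166 in the control and 327, 393 and 680.3 in the knockout (0.96 ± 0.38, adjusted p = 0.0890).

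Levels per length were compared as RPKM (CPM divided by the exon length in kilobases), with the union exon length of GENCODE M39, which understates genes with long rarely used exons. By this measure Cdc20 ranked first of the 50 genes in both groups, at 17.1 ± 6.65 RPKM (mean ± SD, n = 3) in the control and 25.9 ± 10.5 in the knockout. Pttg1 ranked second in the control at 13.8 ± 1.51 RPKM and 16th in the knockout at 9.88 ± 0.782. Mki67 went the other way, from rank 12 at 6.43 ± 1.80 RPKM to rank 2 at 22.95 ± 5.52. In the knockout the SDs of Mki67, Tpx2 (22.2 ± 7.50) and Top2a (21.9 ± 7.74) were wide enough that the order among them and Cdc20 was within the spread. Cdc25c was lowest in both groups (0.547 ± 0.259 and 1.25 ± 0.683).

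Since most of these genes were high together in Pa1F/F library 2 and in Amh-pa1-/- library 3, ratios of counts within a library were looked at, for pairs chosen after the values were seen and therefore with no test. The ratio of Mki67 to Plk1 was 4.60, 3.92 and 6.46 in the control and 13.7, 12.02 and 9.36 in the knockout, and that of Ccna2 to Ccnb1 was 1.22, 0.954 and 1.11 in the control and 1.62, 1.84 and 1.25 in the knockout. The ratio of Bub1 to Bub1b was 0.561, 0.479 and 0.594 in the control and 0.878, 0.927 and 0.897 in the knockout. The genotypes did not overlap in these 3 ratios. The ratio of Aurkb to Aurka was 0.655, 0.565 and 0.717 in the control and 1.03, 1.06 and 0.987 in the knockout, and that of Smc2 to Smc4 was 0.794, 0.767 and 0.774 in the control and 0.956, 1.02 and 0.946 in the knockout. The ratio of securin to separase counts (Pttg1 to Espl1) was 2.96, 2.67 and 4.14 in the control and 0.929, 0.928 and 0.651 in the knockout. Not every pair looked at separated the genotypes, and since the pairs were chosen after their values were seen, nothing is read from how many did. Of 9 pairs, those that overlapped were Ncapg to Ncapd2, at 0.246, 0.201 and 0.217 in the control and 0.271, 0.272 and 0.242 in the knockout, and Ccna2 to Ccnb2, at 1.23, 0.928 and 1.17 in the control and 1.46, 1.58 and 1.15 in the knockout. Apart from Bub1 to Bub1b and Ccnb1 to Ccnb2, each of the 9 ratios was lowest of its group in Pa1F/F library 2 and in Amh-pa1-/- library 3. The cyclin B pair showed a smaller shift, with Ccnb1 to Ccnb2 at 1.004, 0.973 and 1.05 in the control and 0.896, 0.861 and 0.923 in the knockout.

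**Figure D3:**
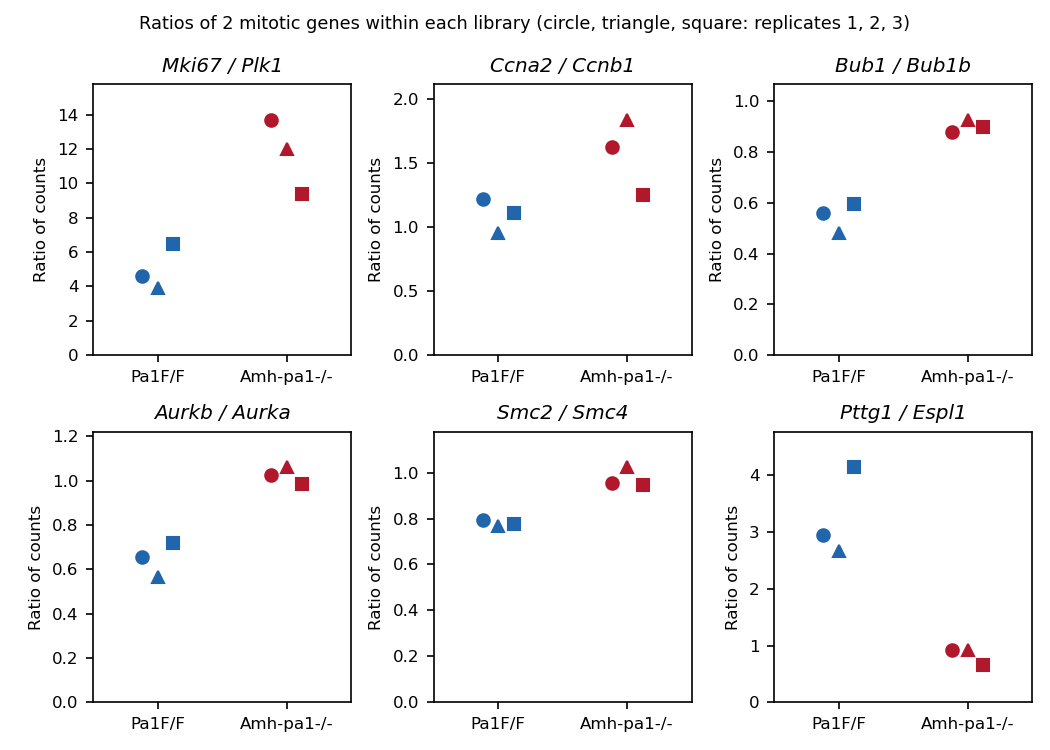
Ratio of the counts of 2 mitotic genes in each library, by genotype, with 1 point per library (circle, triangle and square are replicates 1, 2 and 3) and axes starting at 0. The 6 pairs shown were chosen after their values were seen, from 9 pairs of which 2 overlapped between genotypes; Pttg1 to Espl1 lies between 2.67 and 4.14 in the control and between 0.651 and 0.929 in the knockout.

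The rest of the division machinery is described by lists drawn from textbook roles, beside the 18.2% of all tested genes that were higher and the 17.1% that were lower. Of 31 other kinetochore and checkpoint genes tested, 19 were higher and none lower, with a median log2 fold change of 0.68. Nsl1 (1.91 ± 0.29), Kntc1 (1.69 ± 0.19) and Knl1 (1.28 ± 0.26) changed most of those that passed, and the chaperone of Cenpa, Hjurp, had the highest mean count (0.61 ± 0.16). Of 26 other spindle and cytokinesis genes 17 were higher and none lower (median 1.04), led by Depdc1b (1.46 ± 0.43), the kinesin Kif15 (1.43 ± 0.25) and Depdc1a (1.40 ± 0.32), with Kif23, the motor of centralspindlin, at 0.91 ± 0.20. Psrc1, a microtubule-binding protein, was the one gene of the list with a fitted value below 0 and did not pass (-1.24 ± 0.40, adjusted p = 0.0521). It was at 836, 812 and 835 in the control and 476, 439 and 137 in the knockout, with every knockout library below every control library. Of 19 other entry and exit genes 6 were higher and none lower (median 0.72). Fbxo5, the inhibitor of the anaphase-promoting complex, changed by 1.65 ± 0.27, the kinase Melk by 1.21 ± 0.17 and Mastl (Greatwall kinase) by 0.82 ± 0.24, and Cdc27, a core subunit of that complex and the most counted gene of the list, did not pass (-0.05 ± 0.07, adjusted p = 0.579). Of 15 condensin II and cohesin genes 9 were higher and none lower, at a median of 0.29. In 2 genes of this list that did not pass, Nipbl (-0.13 ± 0.07) and Wapl (-0.14 ± 0.05), every knockout library lay below every control library, which was so for 3891 of the 14919 tested genes. In 12 genes of the list every knockout library lay above every control library, which was so for 26.3% of all tested genes. Stag1, a cohesin subunit used throughout interphase, was at 1309, 1360.4 and 1414 in the control and 3368, 3282 and 3462 in the knockout (1.31 ± 0.05), with little difference between the libraries of a group, while Ncapg2 of condensin II changed by 1.23 ± 0.14 and Cdca5 (sororin) by 1.14 ± 0.21. Rad21, the cleaved subunit of cohesin, had the highest counts of this list and did not pass (0.15 ± 0.08, adjusted p = 0.174).

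Of 22 regulators of mitotic transcription 8 were higher and 1 was lower, with a median of 0.27. The repressors E2f7 and E2f8 and the activator Mybl2 changed most. E2f7 stood at 93.3, 75.5 and 88.1 in the control and 541, 507 and 653 in the knockout (2.72 ± 0.14, 6.61-fold, adjusted p = 8.84e-05). E2f8 changed by 1.81 ± 0.14 and Mybl2, which joins MuvB at late cell cycle promoters, by 1.78 ± 0.15. In none of these 3 genes was Pa1F/F library 2 the highest control. Rbbp4, a core subunit of MuvB and the most counted gene of the list, did not pass (0.18 ± 0.08, adjusted p = 0.107). Of 42 DNA replication genes 34 were higher and none lower, at a median of 0.87. Cdc6 (1.49 ± 0.25), Prim1 (1.43 ± 0.21) and Pole (1.41 ± 0.14) changed most, and Rrm1 (0.48 ± 0.07) had the highest counts. The summed level of the replication genes was 1150.3, 1249.5 and 1139 CPM in the control and 1818, 1853 and 2387 CPM in the knockout, so that Pa1F/F library 2 stood 1.09-fold over the other controls here and 1.47-fold in the mitotic genes, and Amh-pa1-/- library 3 1.30-fold and 1.63-fold over the other knockouts.

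Other dividing cells of the testis were looked for by their markers. The counts of this paragraph stand beside the 18.2% of all tested genes that were higher and the 17.1% that were lower. Of 20 genes of meiotic division 8 passed the filter on low counts. None was higher and 1 was lower (Rad21l, -2.16 ± 0.41). The other 7 had fitted values above 0, up to 1.03 ± 0.39 for Sycp2 (adjusted p = 0.0830), and the median of the 8 was 0.22. Ccna1, Spo11, Meikin and Tex12 had at most 3 counts in every library. The list summed to 34.3, 41.1 and 34.02 CPM in the control and 39.5, 47.5 and 34.4 CPM in the knockout. Most counts of this list came from Rec8, at 305, 339.8 and 293 in the control and 386, 451 and 108 in the knockout, lowest in Amh-pa1-/- library 3. Of 13 spermatogonia markers 6 had at most 3 counts in every library (Zbtb16, Stra8, Sohlh1, Sohlh2, Dmrtb1 and Sall4), and of the 5 tested 3 were lower (Kit -1.92, Ddx4 -1.64 and Gfra1 -1.57) and none was higher. Id4, whose fitted value was the largest of these 5 in size, did not pass (2.09 ± 0.68, adjusted p = 0.0520), at 18.1, 9.68 and 15.7 in the control and 31.2, 27.04 and 128 in the knockout, with no overlap and the highest value in Amh-pa1-/- library 3. The sum of the spermatogonia markers was 222, 192 and 223 CPM in the control and 190.1, 199 and 116 CPM in the knockout, lowest in Amh-pa1-/- library 3, and it was carried by Uchl1. Of the 9 spermatocyte and spermatid markers found by symbol, 7 had at most 3 counts in every library, and the sum was 6.44 to 8.67 CPM in all libraries.

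Markers of the labelled cell type were abundant, with Sertoli markers summing to 18893, 18591 and 18548 CPM in the control and 12464, 12616 and 15691 CPM in the knockout. Of 14 Sertoli markers tested 1 was higher and 5 lower in the knockout, where 18.2% of all tested genes were higher and 17.1% lower. Among the lower were Shbg (-1.29), Inha (-1.23) and Inhbb (-1.003), and Clu was the most counted of the list (-0.69). Macrophage markers (6 of 7 tested lower, none higher), Leydig markers (4 of 5 lower, none higher) and fibroblast markers (3 of 5 lower, none higher) went against the mitotic genes between genotypes, beside the 17.1% of all tested genes that were lower. Of 4 endothelial markers 1 was higher and 2 lower, beside 18.2% and 17.1% of all tested genes. Fibroblast markers summed to 2077, 2483 and 2245 CPM in the control and 1249, 1237 and 2381 CPM in the knockout, so that, as in the mitotic genes, the highest of each group were Pa1F/F library 2 and Amh-pa1-/- library 3. Endothelial markers, at 116.1, 120.7 and 115.9 CPM in the control and 63.1, 63.8 and 103.8 CPM in the knockout, were also highest in these libraries, as were spermatocyte and spermatid markers. The other marker lists were not highest in both. The summed level of peritubular myoid markers was also higher in the knockout libraries, at 283, 219.7 and 283 CPM in the control and 852, 819 and 1301 CPM in the knockout, but only 1 of 5 tested passed (Acta2, 2.15 ± 0.14), none was lower, and none of the 6 was at 0; in the control they were lowest in library 2. Mesothelial markers summed to 11.03, 7.17 and 12.3 CPM in the control and 30.1, 36.1 and 40.5 CPM in the knockout, with 3 of 6 tested higher (Krt19, Upk3b and Lrrn4) and Krt7 at no more than 3 counts in every library. The part of germ cells and of these other cells in the mitotic genes' values was not tested.

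**Figure D4:**
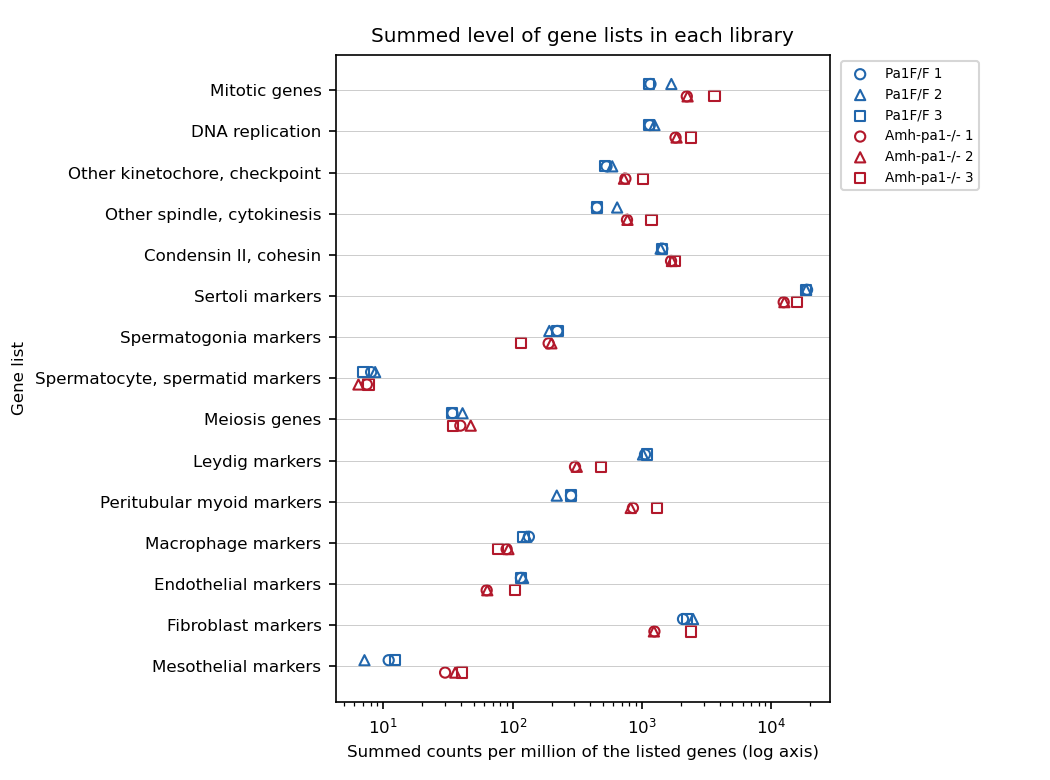
Summed CPM of each gene list in each library on a log axis, with Pa1F/F in blue and Amh-pa1-/- in red and 1 symbol per replicate. The mitotic genes lie between 1130 and 1688 CPM in the control and between 2222 and 3641 CPM in the knockout, while spermatocyte and spermatid markers stay under 9 CPM in every library.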

How the data were processed

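RNA-seq had been made from 3 Pa1F/F and 3 Amh-pa1-/- Sertoli cell samples. Per the study's methods, alignment to GRCm38 used HISAT2 2.1.0 and counting per gene HTSeq 0.6.0, and the authors deposited raw counts for each library. The deposited table also holds the authors' own comparison (mean, fold change and p-values), which was not used. Whether counting used strand is not stated. The targeted gene Pa1 was not analysed here, so the genotypes were not checked in the counts. Total counts were 14051353 to 16231443 in Pa1F/F and 13203757 to 15247587 in Amh-pa1-/-; 3 counts correspond to 0.185 to 0.227 CPM.

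Counts were filtered with filterByExpr (minimum count 10, minimum total 15), TMM-normalized and tested with edgeR 4.0.16's quasi-likelihood test (R 4.3.3) without covariates, in place of the authors' DEGseq. Benjamini-Hochberg adjustment ran over 14919 genes, with thresholds of 0.05 and, for differential expression, an absolute log2 fold change of 1. The standard error is the absolute log2 fold change over the square root of F. The fit was tested on simulated data. Alternatives were DESeq2 1.42.0 size factors and Wald test, library size only, limma 3.58.1 voom, other filters, the replicate number as a block, libraries left out and close pairs summed. Same-numbered libraries did not deviate alike throughout (correlations of same-numbered deviations 0.11, -0.16 and -0.18). With 3 libraries a group this cannot show whether the numbers pair the libraries, and the labels do not say.

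The 50 genes, lists and alternatives were chosen with earlier results of these data known. Values in every library are given, by role, for the gene with the largest passing change, the gene with the highest mean count and up to 3 genes that were lower or did not pass; from other lists up to 3 passing genes with the largest change and the one with the highest count are named. Top2a, Psrc1, Nipbl, Wapl, Sycp2 and Id4 fall outside this rule and were named after their values were seen. Cenps, Pgk2, Tnp1, Prm2 and Tie1 were not found by symbol.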

Additional observations from a re-analysis of the deposited data

How the results depend on the processing

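The count of genes higher in the knockout was 31 to 40 with limma-voom, DESeq2's Wald test, DESeq2 size factors, scaling by library size, no filter beyond 1 count or at least 10 counts in every library, and the same 32 genes were among them except for 1 with scaling by library size and 1 with the stricter filter. The share of all tested genes that were higher was 14.7% with the Wald test, 9.91% without the filter and 17.9% to 18.3% in the others. Leaving out 1 library gave 14 to 39 genes higher, 0 to 1 lower, 11 to 33 higher with a log2 fold change of at least 1 and a median log2 fold change of 0.67 to 1.28. Across these fits 11.5% to 21.9% of all tested genes were higher. Without Pa1F/F library 1 or 3 the count was 14. Without Amh-pa1-/- library 1 it was 28, against 12.9% of all tested genes, and without Amh-pa1-/- library 2 it was 30, against 13.5%. With close pairs summed the counts were 4 higher, 0 lower and 3 higher with a log2 fold change of at least 1, at a median of 1.06, where 4.43% of all tested genes were higher. With the replicate block 23 genes were higher, 1 was lower and 18 were higher with a log2 fold change of at least 1, at a median of 1.024, where 12.8% of all tested genes were higher. Whether the numbers pair the libraries is not known, and the block leaves fewer degrees of freedom, as do the fits with fewer libraries. No gene's fitted value changed sign in any of these fits, in which 49 of 50 were above 0. Depth does not limit most of these genes, as Cdc25c alone had a library under 50 normalized counts, while 3 libraries a group limit every test. Reads without molecular identifiers are not independent molecules.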
